A study of Mus musculus with 16 samples.

Results

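The genes described here are the Hox genes of the HoxA, HoxB, HoxC and HoxD clusters, chosen as every gene whose current symbol is Hoxa, Hoxb, Hoxc or Hoxd followed by a number. Of the 16593 named genes with a probe on the array, 38 were such genes, with 50 probes in all. RNA was measured in trabecular osteoblasts (TOs), bone-forming cells grown out of fetal C57BL/6 mouse long bones taken 1 day before birth, from Pthrp+/+ and Pthrp-/- littermates. The labels name the bone both as tibia and as femur, and the study's methods name the femur. All cultures were kept for 6 days on microcarriers in differentiation medium, either at 1g in static plates or at simulated 0g in a rotating vessel, so that gravity, vessel and rotation changed together. Some cultures received PTHrP1-36, the N-terminal peptide of parathyroid hormone-related protein, at 10 nM for 2 h per day followed by fresh medium, and the others had no treatment. The 8 conditions (2 genotypes, 2 gravities, 2 treatments) were each measured on 2 arrays, 16 in all. The methods speak of duplicate experiments, and neither they nor the labels say whether the duplicates came from separate animals. A p-value here therefore covers only the scatter among these arrays, which may be technical, and genotype cannot be told apart from the primary isolate.

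Hox genes encode homeodomain transcription factors that lie in 4 clusters, numbered from the end expressed most anteriorly (group 1) to the end expressed most posteriorly (group 13). Their combination along the trunk and along the limb marks the position from which a cell came, and mesenchymal cells keep much of that pattern in culture. The central groups 4 to 9 are associated with trunk level and the upper limb bud, and groups 9 to 13 of HoxA and HoxD pattern the limb from its upper segment to the hand or foot. In the limb bud Pitx1 and Tbx4 mark the hindlimb and Tbx5 the forelimb.

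4 windows of sequence show genes whose levels differed most between genotypes and for which a promoter was in the reference table: Hoxb4 and Hoxd8, lower in Pthrp-/- TOs, and Hoxa7 and Hoxd10, higher. Each is the 250 bases before a transcript start in RefSeq (mouse build GRCm38.p6), written 5′ to 3′ on the strand of the gene. They lie at chr11:96318017-96318266 on the plus strand, chr2:74704365-74704614 on the plus strand, chr6:52218574-52218823 on the minus strand and chr2:74691641-74691890 on the plus strand. The Hoxd10 window lies inside the annotated span of its gene, whereas the others border theirs. Capitals mark matches, on either strand, to TATAAA (the TATA box), TGACG (the half-site of the cyclic AMP response element), TGATTNAT (a HOX-PBX site) and CCAAT (the CCAAT box).
Hoxb4: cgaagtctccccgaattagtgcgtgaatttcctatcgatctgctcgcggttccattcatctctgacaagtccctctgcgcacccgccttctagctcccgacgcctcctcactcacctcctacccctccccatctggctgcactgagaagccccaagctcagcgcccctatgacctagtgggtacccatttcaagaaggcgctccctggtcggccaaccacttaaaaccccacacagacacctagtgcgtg
Hoxd8: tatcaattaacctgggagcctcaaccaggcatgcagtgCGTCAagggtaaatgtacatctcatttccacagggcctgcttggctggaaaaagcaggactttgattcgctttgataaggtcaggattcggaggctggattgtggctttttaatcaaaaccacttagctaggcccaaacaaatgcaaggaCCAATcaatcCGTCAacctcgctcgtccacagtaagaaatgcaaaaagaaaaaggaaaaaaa
Hoxa7: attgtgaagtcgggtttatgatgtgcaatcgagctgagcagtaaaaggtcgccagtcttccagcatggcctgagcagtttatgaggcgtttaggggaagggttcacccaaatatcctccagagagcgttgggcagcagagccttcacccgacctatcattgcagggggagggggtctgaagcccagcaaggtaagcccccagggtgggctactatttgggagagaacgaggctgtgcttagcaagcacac
Hoxd10: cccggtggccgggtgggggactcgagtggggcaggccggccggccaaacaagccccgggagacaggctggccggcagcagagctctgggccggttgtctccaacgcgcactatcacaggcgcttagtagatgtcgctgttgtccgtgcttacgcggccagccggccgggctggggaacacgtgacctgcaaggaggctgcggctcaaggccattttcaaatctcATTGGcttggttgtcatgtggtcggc
The Hoxd8 window held 2 matches to TGACG, 212 and 52 bases before the start, and 1 to CCAAT. The Hoxd10 window held 1 match to CCAAT, 26 bases before the start, and those of Hoxb4 and Hoxa7 held none of the 4 motifs. Over the 24 windows of 22 Hox genes, TGACG was found in 7 and CCAAT in 14, where 17.8% and 33.8% of 32851 windows of the same length over all genes held them. TATAAA was found in 4 Hox windows (12.4% of all windows) and TGATTNAT in 2 (2.82%). CG dinucleotides numbered 14 in the window of Hoxb4, 6 in that of Hoxd8, 7 in that of Hoxa7 and 20 in that of Hoxd10, against a median of 13 over the Hox windows and 6 over all windows. A match is a description of letters and says nothing of binding.

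Some facts of the whole series bear on the Hox results. Each array had 12161 to 13560 probes with a detection p under 0.05 against its own negative control beads, and the levels below are log2 normalized intensities, on which the lowest level of a detected probe lay between 4.79 and 5.06 on an array. The array carries 0 probes of Pthlh, the deleted gene, so the genotype labels could not be checked on it. Over the 15279 probes tested, the 0g minus 1g differences of the 2 genotypes, which share no array, correlated at -0.37 (-0.34 untreated and -0.25 treated). The gravity differences of the Pthrp-/- arrays thus tended to the opposite sign, and whether the gravity labels of those arrays play a part was not tested. The mean difference between genotypes and the gravity difference within Pthrp+/+ TOs do not depend on how the Pthrp-/- arrays are labelled for gravity, whereas the gravity difference within Pthrp-/- TOs and the genotype comparisons at a single gravity do. The untreated Pthrp-/- array at 0g of replicate 1 had the lowest mean intensity, 347, where the highest was 560. Most osteoblast genes were detected in both genotypes. Of 11 tested markers 9 were detected on all Pthrp+/+ arrays and 8 on all Pthrp-/- arrays, among them Sp7, a transcription factor of the lineage. Ibsp was detected on 7 of 8 Pthrp+/+ arrays and 0 of 8 Pthrp-/- arrays, and Alpl on 8 and 5 (-1.50 ± 0.11). The osteoblast markers moved with both comparisons, with 2 higher and 7 lower in Pthrp-/- TOs (median -0.51, summed level 20058 to 27611 in Pthrp+/+ and 17644 to 23589 in Pthrp-/- TOs) and 2 higher and 5 lower at 0g in Pthrp+/+ TOs. Of 5 tested chondrocyte markers 3 were higher in Pthrp-/- TOs, among them Col2a1 (1.43 ± 0.08), and 0 were lower. Of 3 tested skeletal muscle markers 2 were higher and 0 lower. Des, of that list, was higher by 1.24 ± 0.06 and also rose at 0g in Pthrp+/+ TOs (1.60 ± 0.09). Of 8 listed cranial mesenchyme markers 1 was tested, Barx1, and it was higher in Pthrp-/- TOs (1.89 ± 0.07). Of 3 tested endothelial markers 0 were higher there and 1, Tek, was lower (-0.71 ± 0.13). Over all genes 43% were higher and 27.5% lower in Pthrp-/- TOs, and 15.7% and 15% at 0g in Pthrp+/+ TOs.

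Macrophage transcripts also moved with both. All 23 tested macrophage markers of 25 listed were lower in Pthrp-/- TOs (median log2 difference -5.18), and their summed linear level was 64594 to 111397 on Pthrp+/+ arrays and 731 to 963 on Pthrp-/- arrays. In Pthrp-/- TOs 11 of the 23 were detected on no array, among them Adgre1, C1qa, C1qb and C1qc. In Pthrp+/+ TOs 22 of the 23 fell at 0g (median -0.77), from a summed level of 98460 to 111397 at 1g to 64594 to 84830 at 0g. Fewer macrophages and less RNA per macrophage cannot be told apart in these bulk cultures, and the same holds for each Hox gene.

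At a detection p under 0.05 on both arrays, 16 to 19 of the 38 Hox genes were detected in each Pthrp+/+ condition and 11 to 17 in each Pthrp-/- condition. The counts were 19 in untreated and 18 in treated Pthrp+/+ TOs at 0g, and 16 and 17 at 1g. In Pthrp-/- TOs they were 11 in untreated and 14 in treated cultures at 0g, and 16 and 17 at 1g. Of all named genes, 52.5% to 53.9% were detected in the Pthrp+/+ conditions and 48.9% to 50.7% in the Pthrp-/- conditions.

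The lists behind these counts differed between genotypes. Detected on all 16 arrays were 8 genes, Hoxa5, Hoxa7, Hoxa9, Hoxa13, Hoxc6, Hoxc9, Hoxc10 and Hoxc13, which is 21.1% of the Hox genes where 44.5% of all named genes were. Detected in all 4 Pthrp+/+ conditions but not in all 4 Pthrp-/- conditions were Hoxa10, Hoxb2, Hoxb4, Hoxb5, Hoxb7, Hoxc4 and Hoxd8. The reverse held for Hoxa4 and Hoxd10. Of these, Hoxa10, Hoxc4 and Hoxd8 were still detected on 7 of 8 Pthrp-/- arrays, and Hoxa4 on 3 of 8 Pthrp+/+ arrays. The share of all genes with either pattern was not computed. Hoxb4 was detected on 8 of 8 Pthrp+/+ and 0 of 8 Pthrp-/- arrays, a pattern shared by 1.58% of all genes. Hoxd10 was detected on 0 of 8 and 8 of 8, a pattern shared by 0.151%. In HoxB, Hoxb2, Hoxb4, Hoxb5 and Hoxb7 were detected in every Pthrp+/+ condition, joined by Hoxb9 at 0g and Hoxb3 at 1g, and 0 or 1 HoxB gene was detected in each Pthrp-/- condition.

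Hoxa2 was detected in the untreated 0g and treated 1g conditions of Pthrp+/+ TOs and in untreated Pthrp-/- TOs at 1g. Hoxb3 was detected in both Pthrp+/+ conditions at 1g, Hoxb9 and Hoxd4 in both at 0g, and Hoxa4 in the treated one at 0g. Hoxb9 was also detected in untreated Pthrp-/- TOs at 1g and treated ones at 0g. Hoxa11 was detected in every Pthrp-/- condition except untreated 0g and in none of Pthrp+/+. Hoxd9 was detected in untreated Pthrp+/+ TOs at 0g, and Hoxd9, Hoxd11 and Hoxb5 in treated Pthrp-/- TOs at 1g. Hoxb6 was detected on 2 Pthrp+/+ arrays, 1 of each 0g condition. Not detected on any array were Hoxa3, Hoxa6, Hoxb1, Hoxb8, Hoxb13, Hoxc5, Hoxc8, Hoxc11, Hoxd1 and Hoxd12, and Hoxc12, Hoxd3 and Hoxd13 were detected on 1 array each. A gene that was not detected here may still be transcribed below the level this probe can show.

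**Figure D1:**
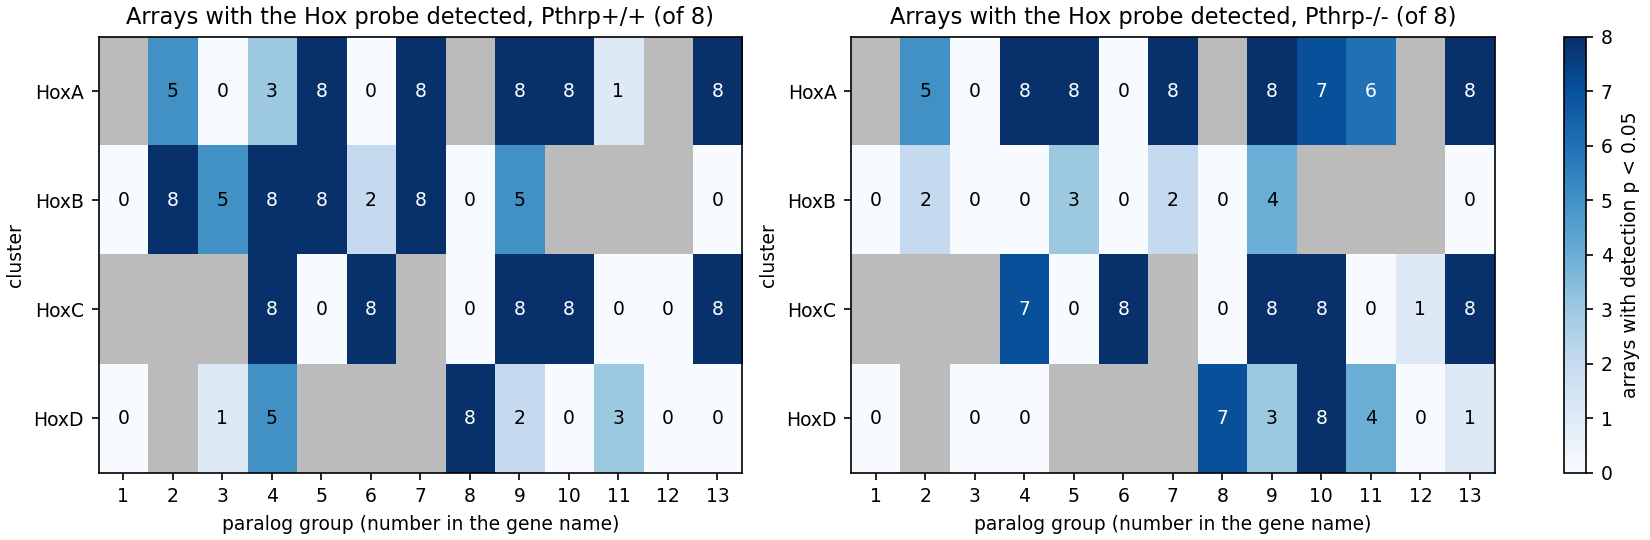
Number of arrays, of 8 in each genotype, on which the Hox probe was detected (detection p under 0.05), by cluster (rows) and paralog group (columns). Grey cells have no gene or no probe. Hoxb2, Hoxb4, Hoxb5 and Hoxb7 reach 8 of 8 Pthrp+/+ arrays and at most 3 of 8 Pthrp-/- arrays, and Hoxd10 goes from 0 to 8.

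To ask whether positional identity differed by genotype, the mean of the 4 Pthrp-/- conditions was set against the mean of the 4 Pthrp+/+ conditions for the 25 Hox genes with a probe detected on at least 2 arrays. In HoxB 5 of 7 tested genes were lower in Pthrp-/- TOs. In HoxA 6 of 8 and in HoxC 3 of 5 were higher, while HoxD was split, with 2 higher and 2 lower. These cluster counts were not tested against the shares of all genes. Of the 25 genes, 11 were higher and 8 lower at an adjusted p under 0.05 (limma), or 76% in either direction. Over all 10438 genes tested 69.4% passed, 43% higher and 27.5% lower, so the share of Hox genes called lay near the background and the finding is which genes went which way. The median difference was 0.09 over the Hox genes and 0.09 over all genes. The arrays of the genotypes did not overlap for 9 of the 25 Hox genes (36%), where the share over all genes was 24.6%. The Hox share was read from the brightest probe of each gene, and the share over all genes from any tested probe. The macrophage, osteoblast, chondrocyte and skeletal muscle markers given above, with Barx1 and Tek, moved with genotype as well. Their part in the result was not tested.

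In HoxB, 5 of 7 tested genes were lower in Pthrp-/- TOs and 0 higher, where 27.5% of all genes were lower and 43% higher. Hoxb7 is a central HoxB gene. Its level lay at 6.68, 6.97 and 7.60 (lowest, median and highest of 8 arrays) in Pthrp+/+ TOs and at 4.33, 4.68 and 4.99 in Pthrp-/- TOs, where it was detected on 2 of 8 arrays. The difference was -2.35 ± 0.09 (SE) on the log2 scale, with an adjusted p of 2.36e-11. Its size depends on the background correction, since the Pthrp-/- mean of 4.70 lay below the lowest detected level of each of those arrays, and it was -1.49 without background correction and -0.50 on the authors' values.

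Hoxb4, known also for its part in blood stem cell expansion, was at 5.56, 5.86 and 6.57 in Pthrp+/+ TOs and at 4.33, 4.51 and 4.75, never above background, in Pthrp-/- TOs. It was at least 2.05-fold higher in Pthrp+/+ TOs, counting each Pthrp-/- array at the higher of its own level and the level at which detection begins (adjusted p = 6.90e-09). Hoxb5 was at 5.32, 5.67 and 6.53 against 4.44, 4.67 and 5.20 (means 5.78 and 4.77, adjusted p = 2.86e-07), with 3 of 8 Pthrp-/- arrays detected. Hoxb2, which in the hindbrain specifies facial motor neurons, was at 5.30, 5.60 and 6.02 against 4.56, 4.84 and 5.20 (-0.79 ± 0.09, adjusted p = 4.39e-06). For all 4 of these genes the lowest Pthrp+/+ array lay above the highest Pthrp-/- array.

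The other HoxB genes lay near the level at which detection begins. Hoxb3 was called lower through its dimmer probe (-0.19 ± 0.08, adjusted p = 0.0443), while its brighter probe missed the threshold (-0.17 ± 0.08, adjusted p = 0.0623). The brighter probe was detected on 5 Pthrp+/+ arrays and 0 Pthrp-/- arrays. Hoxb9 and Hoxb6 did not pass (-0.14 ± 0.06 and 0.06 ± 0.08, adjusted p = 0.0668 and 0.553). The annotated span of Hoxb3 contains Hoxb4, so transcripts of these neighbours may not be fully separated by their names.

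HoxD was divided within the cluster, with Hoxd4 and Hoxd8 lower and Hoxd9 and Hoxd10 higher in Pthrp-/- TOs. Hoxd8 was at 6.07, 6.42 and 6.77 in Pthrp+/+ TOs and at 4.87, 5.18 and 5.48 in Pthrp-/- TOs, with no overlap (-1.28 ± 0.07, a fold of 2.43, adjusted p = 2.80e-09). Hoxd10, which with its neighbours patterns the limb and its motor innervation, ran the other way. It was at 4.31, 4.46 and 4.60 in Pthrp+/+ TOs, on none of which it was detected, and at 5.40, 6.07 and 6.27 in Pthrp-/- TOs, where every array detected it. It was at least 2.25-fold higher in Pthrp-/- TOs (limma, adjusted p = 5.68e-10). The annotated spans of Hoxd10 and Hoxd11 overlap.

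Hoxd4 was detected on 5 of 8 Pthrp+/+ and 0 of 8 Pthrp-/- arrays (measured means 4.94 and 4.58, adjusted p = 0.00187), but no fold is given because its Pthrp+/+ mean did not clear the level at which detection begins on the Pthrp-/- arrays. Hoxd9, detected on 2 and 3 arrays, differed by 0.19 ± 0.07 (adjusted p = 0.0256), and Hoxd11 by 0.15 ± 0.10 (adjusted p = 0.222). Both stayed close to background on most arrays. The call of Hoxd9 was lost on leaving out any 1 of 6 arrays. By condition it was called higher at 1g and lower in untreated TOs at 0g.

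In HoxA, 6 of 8 tested genes were higher in Pthrp-/- TOs and 1 was lower, where 43% of all genes were higher and 27.5% lower. Hoxa7, a central HoxA gene, was at 7.82, 8.38 and 8.99 in Pthrp+/+ TOs and at 9.81, 10.03 and 10.42 in Pthrp-/- TOs (1.71 ± 0.08, a fold of 3.28, adjusted p = 2.76e-10). Hoxa5, needed for lung and cervical skeleton development, was at 7.59, 7.86 and 8.45 against 8.51, 8.76 and 9.03 (0.88 ± 0.07, a fold of 1.84, adjusted p = 1.80e-07). In both genes every Pthrp-/- array lay above every Pthrp+/+ array.

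The arrays of the genotypes overlapped for the remaining HoxA genes. Hoxa11, which patterns the lower leg and forearm, was detected on 1 Pthrp+/+ array and 6 Pthrp-/- arrays (4.55, 4.64 and 4.90 against 4.85, 5.43 and 5.69) and differed by 0.66 ± 0.07 (adjusted p = 1.79e-06). Hoxa4 was detected on 3 and 8 arrays and differed by 0.53 ± 0.12 (adjusted p = 0.00187). Hoxa9 was higher by both of its probes (0.34 ± 0.11 and 0.45 ± 0.11, adjusted p = 0.0131 and 0.00198). Hoxa13, the HoxA gene of the hand and foot, was called through its brighter probe (0.39 ± 0.14, adjusted p = 0.0271) and not through its dimmer one (0.16 ± 0.08, adjusted p = 0.0905), which no Pthrp+/+ array detected. Hoxa10, detected in nearly all libraries, was the HoxA gene that fell (-0.28 ± 0.11, adjusted p = 0.0306). The calls of Hoxa10 and Hoxa13 were each lost on leaving out any 1 of several arrays, 8 of the 16 for Hoxa10 and 6 for Hoxa13. The values of Hoxa2 did not pass (0.09 ± 0.11, adjusted p = 0.492).

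In HoxC, 3 of 5 tested genes were higher in Pthrp-/- TOs and 0 lower, where 43% of all genes were higher and 27.5% lower. Hoxc13, known for hair and nail formation, was at 5.35, 5.62 and 5.90 in Pthrp+/+ TOs and at 6.11, 6.26 and 6.45 in Pthrp-/- TOs, without overlap (0.65 ± 0.06, a fold of 1.56, adjusted p = 3.59e-07). Hoxc6 was at 11.01, 11.45 and 12.14 against 11.70, 11.81 and 12.18 (0.40 ± 0.06, adjusted p = 2.81e-05). Hoxc10, a gene of the lumbar and hindlimb region, was at 7.93, 8.20 and 9.00 against 8.58, 8.74 and 8.98 (0.41 ± 0.06, adjusted p = 5.24e-05), and its other probe gave 0.38 ± 0.06. The overlap in these last 2 genes came from the Pthrp+/+ arrays at 0g. Hoxc9 and Hoxc4 did not pass (-0.09 ± 0.05 and -0.02 ± 0.10, adjusted p = 0.161 and 0.898).

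**Figure D2:**
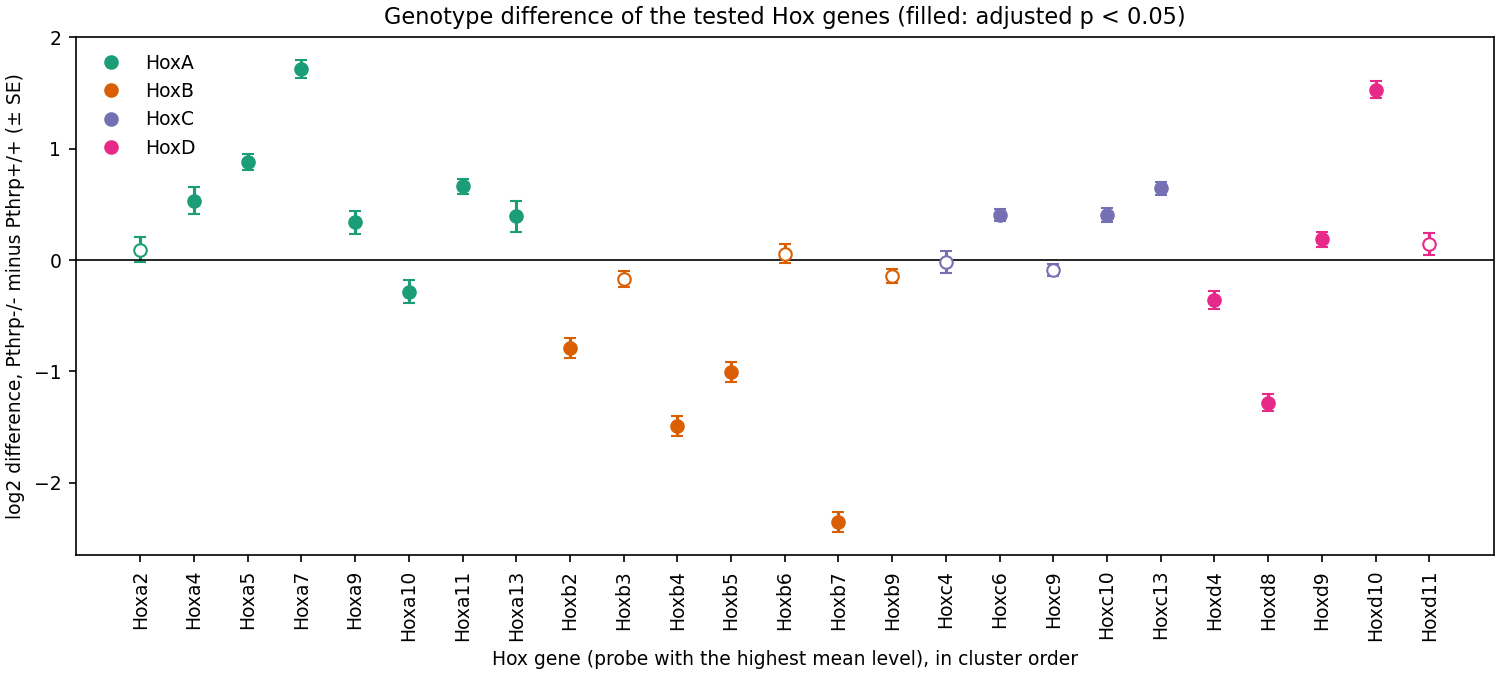
Log2 difference between Pthrp-/- and Pthrp+/+ TOs (vertical axis, mean over gravity and treatment, bars 1 SE) for the 25 tested Hox genes in cluster order, 8 arrays against 8. Filled points passed an adjusted p of 0.05. Filled HoxB points lie below 0, down to -2.35 for Hoxb7, while HoxA and HoxC points lie mostly above, up to 1.71 for Hoxa7.

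The genotype pattern was present in each of the 4 conditions for a core of genes. Hoxb4, Hoxb7 and Hoxd8 were lower, and Hoxa5, Hoxa7, Hoxc13 and Hoxd10 higher, at an adjusted p under 0.05 in each. Hoxb7 differed by -2.09 ± 0.18 in untreated TOs at 1g, -2.15 ± 0.18 in treated TOs at 1g, -2.95 ± 0.18 in untreated TOs at 0g and -2.23 ± 0.18 in treated TOs at 0g. Hoxa7 differed by 2.20 ± 0.16, 1.89 ± 0.16, 1.38 ± 0.16 and 1.39 ± 0.16 in the same order. In untreated TOs at 1g 11 Hox genes were higher and 4 lower of 25, where 33% and 22.9% of all genes were. The counts were 9 and 4 in treated TOs at 1g (31% and 23.2% of all genes), 5 and 8 in untreated TOs at 0g (19.7% and 16.2%) and 6 and 5 in treated TOs at 0g (21% and 16%). Hoxb9 changed sides, at 0.87 ± 0.13 in untreated TOs at 1g and -1.05 ± 0.13 in untreated TOs at 0g, both past the threshold. Hoxd9 changed sides as well, called higher in untreated and in treated TOs at 1g and lower in untreated TOs at 0g. Both reversals rest on the Pthrp-/- arrays as labelled for gravity, and the part of those labels was not tested. The 11 were the genes of the mean comparison without Hoxa4, with Hoxb9 in addition, and the 4 were Hoxb4, Hoxb5, Hoxb7 and Hoxd8. Hoxc6 was 1.16 ± 0.11 higher there (11.01 and 11.02 on the Pthrp+/+ arrays, 12.18 and 12.16 on the Pthrp-/- arrays, adjusted p = 1.39e-06).

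**Figure D3:**
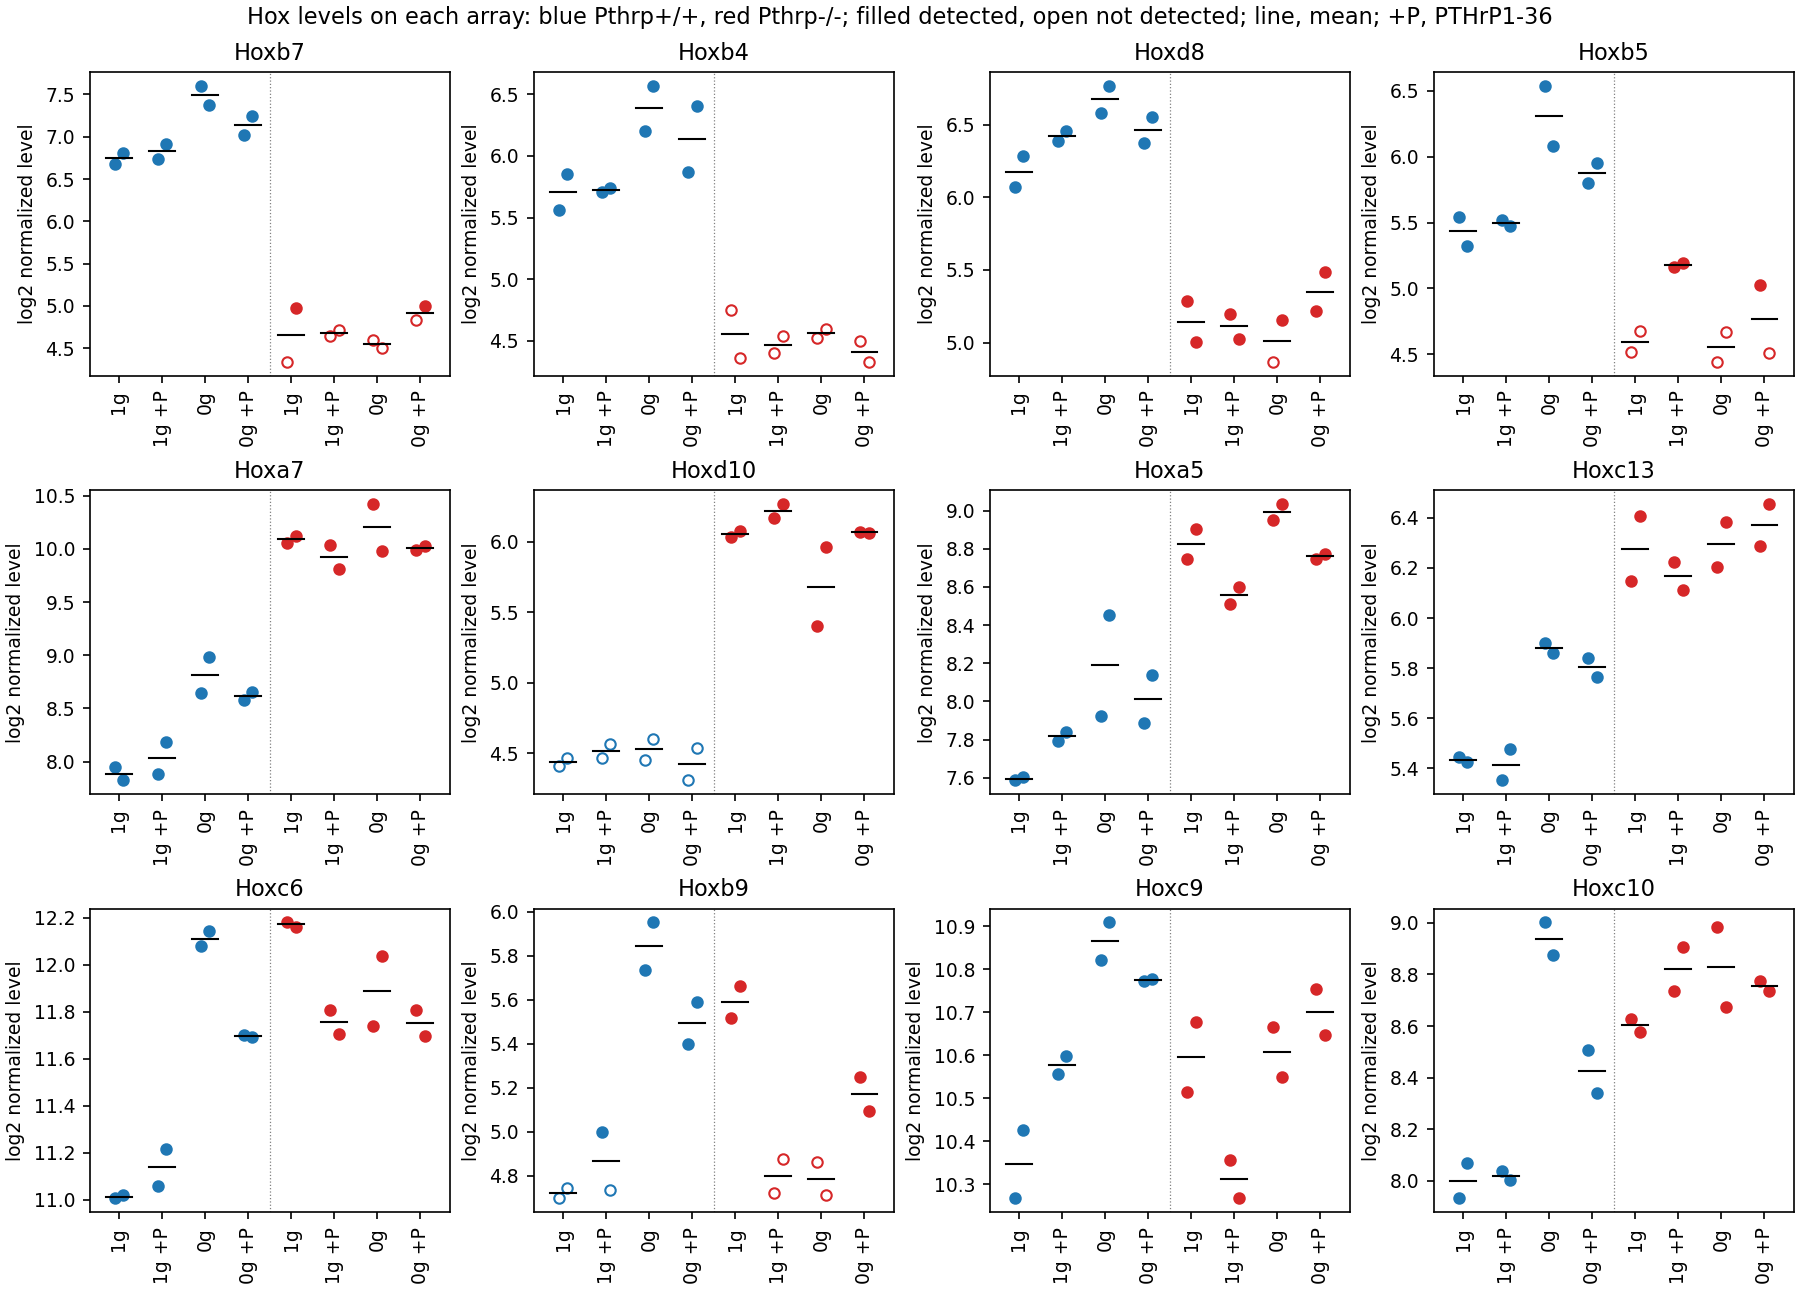
Log2 normalized level (vertical axis) of 12 Hox genes on each of the 16 arrays, by condition (horizontal axis, +P marks PTHrP1-36), with the mean of 2 arrays as a line. Open points were not detected. Hoxb7 and Hoxb4 are high on all 8 Pthrp+/+ arrays and near background on the Pthrp-/- arrays, Hoxd10 is the reverse, and Hoxc6, Hoxb9, Hoxc10 and Hoxa7 are higher at 0g than at 1g in Pthrp+/+ TOs.

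To ask whether gravity changed the Hox pattern, 0g was set against 1g within each genotype over both treatments. In Pthrp+/+ TOs 12 of 25 Hox genes were higher at 0g and 0 were lower, among them genes of all 4 clusters. Of all genes 15.7% were higher and 15% lower. The median difference was 0.28 over the Hox genes and 0.02 over all genes. Arrays did not overlap for 11 Hox genes (44%, by the brightest probe), against 28.9% of all genes (by any tested probe). The macrophage markers and 5 of the osteoblast markers fell in the same comparison, and their part in the result was not tested.

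Hoxb9 is a gene of the thoracic to lumbar levels. Its 4 arrays at 1g read 4.70, 4.74, 5.00 and 4.74 (only 1 detected), and those at 0g 5.73, 5.95, 5.40 and 5.59 (0.87 ± 0.09, adjusted p = 1.00e-05, and 0.46 without background correction). Hoxc6 read 11.01, 11.02, 11.06 and 11.21 at 1g and 12.08, 12.14, 11.70 and 11.69 at 0g (0.83 ± 0.08, a fold of 1.78, adjusted p = 4.35e-06). In each set the first 2 arrays were untreated, and in Hoxc6 the treated 0g arrays lay between the untreated 0g arrays and the 1g arrays.

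Hoxa7 read 7.95, 7.82, 7.89 and 8.19 at 1g and 8.65, 8.99, 8.58 and 8.66 at 0g (0.76 ± 0.11, a fold of 1.69, adjusted p = 2.21e-04). Hoxc10 read 7.93, 8.07, 8.04 and 8.01 at 1g and 9.00, 8.88, 8.51 and 8.34 at 0g (0.67 ± 0.09, adjusted p = 5.94e-05). Of the HoxB genes that were low in Pthrp-/- TOs, Hoxb5, Hoxb4 and Hoxb7 rose at 0g in Pthrp+/+ TOs, by 0.63 ± 0.13, 0.54 ± 0.13 and 0.53 ± 0.12 (adjusted p = 0.00201, 0.00731 and 0.00589). The genes that rose thus included both some that were lower and some that were higher in Pthrp-/- than in Pthrp+/+ TOs.

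Hoxc13, Hoxa5, Hoxc9, Hoxd4 and Hoxd9 rose by 0.42, 0.40, 0.36, 0.37 and 0.28 (adjusted p from 0.00181 to 0.0427). The call of Hoxa5 was lost without the treated Pthrp+/+ array at 0g of replicate 2 (0.33, adjusted p = 0.0642), that of Hoxd4 without any 1 of 7 arrays and that of Hoxd9 without any 1 of 9. Hoxd9 was on no 1g array and on 2 of the 4 0g arrays above background, and was at least 1.05-fold higher at 0g. Of the 13 genes that did not pass, Hoxb2 and Hoxd8 had differences of 0.32 ± 0.13 and 0.27 ± 0.10 (adjusted p = 0.0848 and 0.0765), and Hoxa10 the most negative, -0.30 ± 0.15 (adjusted p = 0.176). Hoxd10 differed by 0.00 ± 0.11, with no Pthrp+/+ array above background.

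In untreated Pthrp+/+ TOs 13 Hox genes were higher at 0g and 0 lower (14.3% and 14.2% of all genes), and in treated Pthrp+/+ TOs 3 were higher, Hoxa7, Hoxb9 and Hoxc6, and 0 lower, where 3.86% of all genes were higher. The untreated count fell to 6 without the untreated Pthrp+/+ array at 1g of replicate 1 and to 8 without the untreated Pthrp+/+ array at 0g of replicate 2. Whether the gravity difference itself changed with treatment was not tested.

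In Pthrp-/- TOs 0 of 25 Hox genes passed between 0g and 1g over both treatments (limma), where 17.7% of all genes did, and 6 had an unadjusted p under 0.05. Their differences ran from -0.39 (Hoxa10) to 0.22 (Hoxb6). Of the 23 macrophage markers 0 passed there. By condition, Hoxa11 and Hoxb9 were lower at 0g in untreated Pthrp-/- TOs (-0.70 ± 0.14 and -0.80 ± 0.13, adjusted p = 0.00696 and 0.00174), where 4.79% of all genes were lower. Hoxc9 was higher in treated ones (0.39 ± 0.10, adjusted p = 0.0358), where 5.54% of all genes were. Hoxb9 read 5.51 and 5.66 in untreated cultures at 1g and 4.86 and 4.71 at 0g, and 4.72 and 4.87 in treated cultures at 1g and 5.25 and 5.09 at 0g. The order of its levels by gravity was therefore opposite in untreated and treated Pthrp-/- TOs.

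The gravity difference itself differed between genotypes (interaction, limma) for 7 of 25 Hox genes, all with a smaller or opposite difference in Pthrp-/- TOs, where 17.3% of all genes had an interaction of this sign and 16.4% of the other. These were Hoxb9 (-1.09 ± 0.13), Hoxc6 (-0.97 ± 0.11), Hoxb5 (-0.85 ± 0.18), Hoxa7 (-0.66 ± 0.16), Hoxc10 (-0.59 ± 0.12), Hoxd9 (-0.57 ± 0.13) and Hoxb4 (-0.57 ± 0.19). Hoxb4 was above background on no Pthrp-/- array, and its call was lost without any 1 of 9 arrays. Hoxb5, Hoxb9 and Hoxd9 were detected on 3, 4 and 3 of 8 Pthrp-/- arrays, so their differences there lay near background. All 7 values use the Pthrp-/- arrays as labelled for gravity. Of the 23 tested macrophage markers 19 had an interaction of the other sign (median 0.80) and 0 of this sign. Their part in the Hox interactions was not tested.

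**Figure D4:**
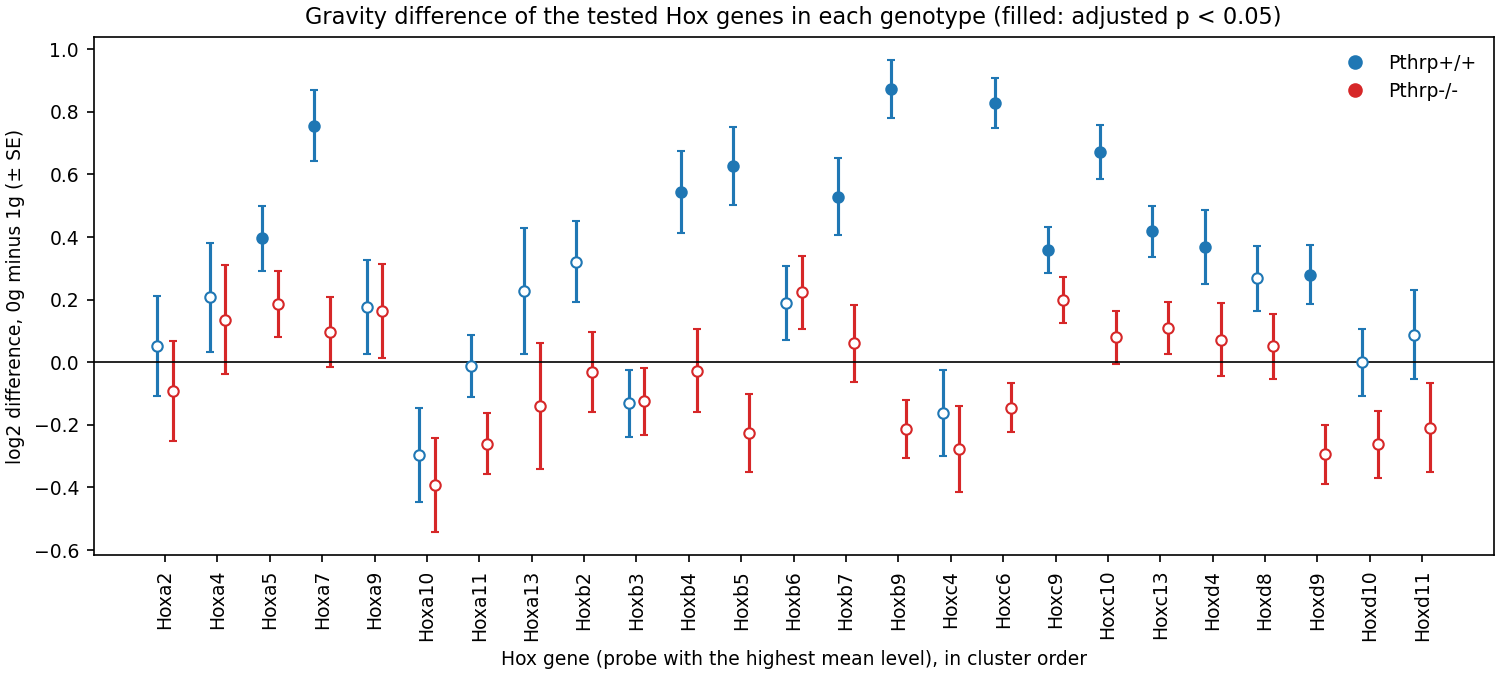
Log2 difference between 0g and 1g (vertical axis, mean over treatment, bars 1 SE) for the 25 tested Hox genes in Pthrp+/+ TOs (blue, 4 arrays against 4) and Pthrp-/- TOs (red, 4 against 4). Filled points passed an adjusted p of 0.05. In Pthrp+/+ TOs 12 genes are filled, all above 0, and in Pthrp-/- TOs none is.

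PTHrP1-36 treatment left few Hox differences. Over genotype and gravity 1 gene of 25 passed, Hoxc6, which fell by 0.21 on the log2 scale (SE 0.06, adjusted p = 0.0368), where 4.99% of all genes fell. The values of the other genes did not pass, and the call of Hoxc6 was lost without any 1 of 13 arrays. By condition, Hoxc6 and Hoxc10 were lower with treatment in Pthrp+/+ TOs at 0g (-0.41 ± 0.11 and -0.51 ± 0.12, adjusted p = 0.0420 and 0.0218), where 3.61% of all genes were lower. Hoxb9 was lower in Pthrp-/- TOs at 1g (-0.79 ± 0.13, adjusted p = 0.00626, 1.72% of all genes lower), and Hoxa11 higher in Pthrp-/- TOs at 0g (0.70 ± 0.14, adjusted p = 0.0231, 1.29% of all genes higher). In Pthrp+/+ TOs at 1g 0 passed (limma), 1 had an unadjusted p under 0.05, and 0.795% of all genes passed.

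The genes that work with Hox proteins or set limb identity gave a frame for these values. Pitx1 and Tbx4, the hindlimb determinants, were detected on 6 of 8 Pthrp+/+ and 8 of 8 Pthrp-/- arrays and Tbx5, the forelimb determinant, on none of the 16. Both hindlimb genes were higher in Pthrp-/- TOs, Pitx1 by 1.10 ± 0.06 (4.77, 4.91 and 5.10 against 5.79, 6.00 and 6.23, adjusted p = 1.84e-09) and Tbx4 by 0.76 ± 0.07 (adjusted p = 2.49e-07). Tbx4 was lower at 0g in Pthrp+/+ TOs (-0.30 ± 0.09, adjusted p = 0.0306) and higher in Pthrp-/- TOs (0.40 ± 0.09, adjusted p = 0.0103), while Pitx1 did not pass in either.

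Of 20 tested limb patterning genes 12 were higher and 6 lower in Pthrp-/- TOs, with a median difference of 0.53 beside 0.09 over all genes, of which 43% were higher and 27.5% lower. The largest differences were those of the homeobox genes Irx2 (2.97 ± 0.06), Lhx9 (2.14 ± 0.09), Msx2 (2.06 ± 0.07) and Irx3 (2.02 ± 0.07). Of 7 tested TALE homeodomain cofactors, which bind DNA together with Hox proteins, 2 were lower in Pthrp-/- TOs, Meis1 (-0.77 ± 0.07, adjusted p = 3.65e-07) and Pknox2 (-0.31 ± 0.11, adjusted p = 0.0255), and Pbx2 and Pknox1 were higher through a probe other than their brightest (0.27 and 0.25, adjusted p = 0.00666 and 0.00236). By their brightest probe the 5 members other than Meis1 and Pknox2 lay between -0.10 and 0.12 and did not pass. Of 16 tested Polycomb and trithorax genes, which keep Hox genes silent or active, 5 were higher and 4 lower, fewer than the share of all genes that passed (69.4%). Ezh2, the histone H3 lysine 27 methyltransferase, was lower by 1.97 ± 0.07, Suz12 differed by -0.48 ± 0.05 and Cbx8 by 0.72 ± 0.06. The Polycomb list had a median genotype difference of 0.11, and in Pthrp+/+ TOs at 0g 0 of its genes were higher and 1, Suz12, was lower.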

How the data were processed

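RNA of 16 TO samples was hybridised to Illumina Mouse Ref8 arrays, 1 array per sample and 2 per condition. The deposited values are bead-summarised intensities that the authors did not normalize between arrays, with a detection p-value deposited beside each intensity. A second deposited table holds log2 values that the authors made with lumi in FlexArray, used here as an alternative. Of 25697 probes 23978 had 1 gene symbol and 1719 had none, and symbols were updated through gene numbers. Intensities were corrected for background with limma 3.58.1 on R 4.3.3 (neqc, offset 16) and quantile-normalized on the log2 scale. Testing was limited to probes detected on at least 2 arrays (15279 probes, 10438 genes). A fit of 8 condition means had 8 residual degrees of freedom and a prior of 4.98, and p-values were adjusted by Benjamini-Hochberg over all tested probes. A gene was called where any of its probes had an adjusted p under 0.05, and its values are those of its brightest tested probe. The 13 Hox genes without a tested probe have detection only. The script was tested on simulated data. The number of arrays limits the precision. Hox genes that passed the genotype or a gravity comparison, Hoxc6, Hoxa7 and those with an interaction were named with full values, with Pitx1, Tbx4 and Tbx5 and up to 4 members of other lists with the largest genotype or gravity differences, and macrophage and osteoblast genes only as marker checks. Members and lists were chosen with earlier results of these data known. Promoter windows come from RefSeq. Apart from those of the promoter windows, no gene coordinates are given because the array files name no build.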

Additional observations from a re-analysis of the deposited data

Results flagged for a closer look

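For 7 Hox genes the 0g minus 1g difference was not the same in the 2 genotypes by the interaction term of the limma fit. Hoxb9 differed by 0.87 in Pthrp+/+ TOs and by -0.21 in Pthrp-/- TOs (interaction -1.09, adjusted p = 3.08e-05), Hoxc6 by 0.83 and -0.14 (-0.97, adjusted p = 2.28e-05) and Hoxb5 by 0.63 and -0.23 (-0.85, adjusted p = 0.00255). Hoxd9 differed by 0.28 and -0.29 (-0.57, adjusted p = 0.00540), with few arrays above background. Hoxa7 differed by 0.76 and 0.10 (-0.66, adjusted p = 0.00712), Hoxc10 by 0.67 and 0.08 (-0.59, adjusted p = 0.00241) and Hoxb4 by 0.54 and -0.03 (-0.57, adjusted p = 0.0344). On the Pthrp-/- arrays Hoxb4 was detected on 0 of 8 and Hoxb5 on 3 of 8. The Pthrp-/- differences rest on gravity labels whose differences over all tested probes ran against those of Pthrp+/+ TOs. The part of those labels in the interaction was not tested. Of 23 tested macrophage markers 19 had an interaction of the opposite sign, and their part was not tested either. Groups of 2 arrays are too small for a check of single outlying arrays.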

How the results depend on the processing

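The genotype counts (11 Hox genes higher, 8 lower) were 9 to 11 and 6 to 10 under the alternatives other than the study's thresholds, and at those (fold above 2 or below 0.5, unadjusted p under 0.05) 2 and 4. The Pthrp+/+ gravity count (12 higher) was 10 to 13, and at the study's thresholds 0. At those thresholds the interaction count fell from 7 to 1, the untreated Pthrp+/+ gravity count from 13 to 2, the count higher in Pthrp-/- untreated at 1g from 11 to 5 and the treatment count from 1 to 0. The untreated Pthrp+/+ gravity count was 9 with array weights and 9 on the authors' values. Untreated 0g arrays had the lowest weights, 0.51 in Pthrp+/+ and 0.39 in Pthrp-/- TOs, where the others lay between 1.05 and 1.81. For gravity in Pthrp-/- TOs, 0 became 1 higher with the authors' values and with trend and robust estimation, and 1 lower with the replicate block within genotype and with 1 probe per gene. Detected Hox genes at a detection p under 0.01 were 9 in treated Pthrp-/- TOs at 0g and 9 at 1g. Leaving out 1 array at a time gave 9 to 12 higher and 6 to 8 lower by genotype, 9 to 12 higher by gravity in Pthrp+/+ TOs, 0 to 1 higher and 0 to 2 lower by gravity in Pthrp-/- TOs, 6 to 9 interactions, 6 to 14 higher in untreated Pthrp+/+ TOs, 9 to 13 higher and 4 to 5 lower untreated at 1g, and 0 to 1 higher and 0 to 3 lower with treatment. The Pthrp-/- gravity counts rose to 1 higher without untreated 0g replicate 2 and to 2 lower without untreated 0g replicate 1, and the treatment count rose to 3 lower without untreated Pthrp-/- 0g replicate 2. Of 37 named differences followed through 468 alternative values, 409 kept their call, 59 lost it and 0 changed sign. Sizes moved more than calls. Without background correction 24 of the 37 were smaller by over 1.5 times (median ratio 0.619) and on the authors' values 29 (median ratio 0.186, lowest 0.101), among them Hoxb7 by genotype (-2.35 to -0.50), Hoxb4 (-1.49 to -0.24), Hoxd10 (1.53 to 0.23) and Hoxb9 by gravity (0.87 to 0.12), whereas Hoxa7 by genotype (1.71) stayed at 1.38 or more and Hoxc6 by gravity (0.83) at 0.77 or more. The genotype calls of Hoxa9, Hoxa10, Hoxa13 and Hoxd9, the gravity calls of Hoxd4 and Hoxd9, the Hoxc13 gravity difference and the interactions of Hoxb4 and Hoxd9 lost it under at least 1 setting other than the study's thresholds, and the cause was not tested. Replicate numbers are shared by the labels, but differences between replicates correlated above 0.1 in 7 of 28 pairs of conditions, so they were not taken as pairs, and the replicate block over all arrays gave 8 interactions in place of 7. The average over the 3 conditions other than untreated 0g, chosen after seeing the data, gave 10 higher and 7 lower. Under cyclic loess 48% of all genotype calls were higher (61% as reported), 40.4% of gravity calls in Pthrp+/+ TOs (51.1%) and 58.7% of interactions (48.6%), and the median genotype difference over all genes moved from 0.09 to 0.00. The alternative of fitting only the groups compared is the same fit for comparisons of all 8 conditions and was not run there. Signal near background limits Hoxa4, Hoxa11, Hoxb3, Hoxb6, Hoxb9, Hoxd4, Hoxd9 and Hoxd11. It also limits Hoxb2, Hoxb4, Hoxb5 and Hoxb7 on the Pthrp-/- arrays and Hoxd10 on the Pthrp+/+ arrays.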

Other observations

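Genes beside the Hox clusters and the retinoic acid pathway, which acts upstream of Hox genes in the embryo, were not used above. Of 14 tested neighbours of the clusters 4 were higher and 7 lower in Pthrp-/- TOs (limma, adjusted p under 0.05), with a median of -0.13 beside 0.09 over all genes, of which 43% were higher and 27.5% lower. The members with the largest differences were Hnrnpa1 near HoxC (-0.91 ± 0.06), Skap2 beside HoxA (-0.89 ± 0.06) and Nfe2l1 near HoxB (0.66 ± 0.05). Nfe2, a transcription factor of blood cells that lies near HoxC, was detected on 4 Pthrp+/+ and 0 Pthrp-/- arrays and, within Pthrp+/+ TOs, on all 4 arrays at 1g and none at 0g, at least 1.28-fold lower there (limma, adjusted p = 7.93e-05), where the macrophage markers also fell.

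Of 11 tested retinoic acid genes 5 were higher and 1 lower in Pthrp-/- TOs, fewer than the share of all genes that passed (69.4%). Crabp1, a retinoic acid binding protein, was lower by 2.75 ± 0.09, and its relative Crabp2 differed by 0.98 ± 0.08 and Aldh1a1, an enzyme of retinoic acid synthesis, by 0.97 ± 0.13. Crabp1 differed by -0.76 ± 0.12 between 0g and 1g in Pthrp+/+ TOs and by 1.09 ± 0.12 in Pthrp-/- TOs, and Aldh1a3, another synthesis enzyme, by -0.48 ± 0.16 and -1.06 ± 0.16. Of the 3 Cdx genes, activators of central Hox genes in the embryo, 1 was tested and it did not pass.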
